A study of Homo sapiens with 9 samples.

Results

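The 54 G2/M and spindle genes described here are genes whose products act in the G2 phase and in mitosis. They were taken from a list of gene symbols and not picked by their values, though the list was chosen with earlier results of these data known. They were matched to the gene identifiers of the deposited count tables through GENCODE release 29. All 54 were found among 58096 identifiers. Of them 53 passed the filter on low counts, which kept 18554 genes. GAS2L3, which encodes a protein linking actin and microtubules, was at 0 to 2 counts per library and was not tested. The lowest count of a tested member in any library was 759.

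ALL-SIL is a human T-cell acute lymphoblastic leukaemia line that carries a TLX1 (HOX11) rearrangement. TLX1 encodes a homeobox transcription factor that T cells normally do not express. The study electroporated these cells with an siRNA named for TLX1 (siRNA1 or siRNA2) or with one labelled NTC, an abbreviation the labels do not spell out, and sequenced their polyadenylated RNA. Each of the 3 labels has replicates 1, 2 and 3, giving 9 libraries that all received an siRNA. Dose, harvest time and siRNA sequences were not used here. Whether the replicates came from separate cultures is not recorded, so a p-value reflects the spread among these 9 libraries and nothing wider.

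Entry into mitosis is driven by the kinase CDK1 bound to a B-type or A-type cyclin, with the phosphatase CDC25C removing its inhibitory phosphates and the kinases PLK1, AURKA and AURKB acting beside it. The spindle is built by kinesins and microtubule-binding proteins. A checkpoint at the kinetochore holds the anaphase-promoting complex inactive until chromosomes are attached, and the complex, with its activator CDC20, then marks cyclin B for destruction. Transcripts of most of these genes accumulate late in the cell cycle under the MuvB complex with B-MYB and FOXM1, which acts at the promoter element called the cell cycle genes homology region (CHR), and under NF-Y, which binds CCAAT boxes.

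The libraries held 58305492 to 99524663 gene counts, and the members together took 1.15% to 1.43% of them. Levels are given as CPM, counts relative to a library's total after scaling by normalization factors of 0.975 to 1.04. In bulk RNA fewer cells in a phase and less RNA per cell cannot be told apart. The target of the siRNAs did not follow its labels. In replicates 1, 2 and 3, the TLX1 level was 183.7, 167 and 183.1 CPM with NTC, 406, 457 and 387 CPM with siRNA1, and 198, 231 and 179 CPM with siRNA2. The siRNA1 libraries were thus the highest, by 1.23 over NTC on the log2 scale (SE 0.10, edgeR adjusted p = 0.000449), and siRNA2 differed from NTC by 0.19 (adjusted p = 0.9999). All directions below go by label only. The 3 libraries numbered replicate 1 stood apart in TLX3, which had 33 to 54 counts in them and 0 in the other 6. All 8 T lineage markers were detected in every library, and their summed level was 1936 to 2426 CPM.

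Across the 9 libraries the mitotic genes differed more by replicate number than by siRNA label. The range of the replicate numbers' mean log2 CPM exceeded that of the labels for 48 of 53 members, against 65.9% of all tested genes, with medians over members of 0.37 between replicate numbers and 0.17 between labels (0.28 and 0.19 over all genes). In an edgeR quasi-likelihood fit with label and replicate number, 43 of 53 members (81.1%) passed the test of the replicate number at a Benjamini-Hochberg adjusted p under 0.05, a call made for 35.8% of all genes. Replicate 2 was higher than replicate 3 for 37 members (9.91% of all genes) and lower for 1, ZWINT (10.7%). Replicate 1 was lower than replicates 2 and 3 for 20 members (10.4%) and higher for 4, ZW10, ZWINT, KNTC1 and ANP32E (10.9%). The median member differed by 0.29 between replicates 2 and 3 and by -0.10 between replicate 1 and the others on the log2 scale, while the medians of all genes were -0.01 in both.

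**Figure D1:**
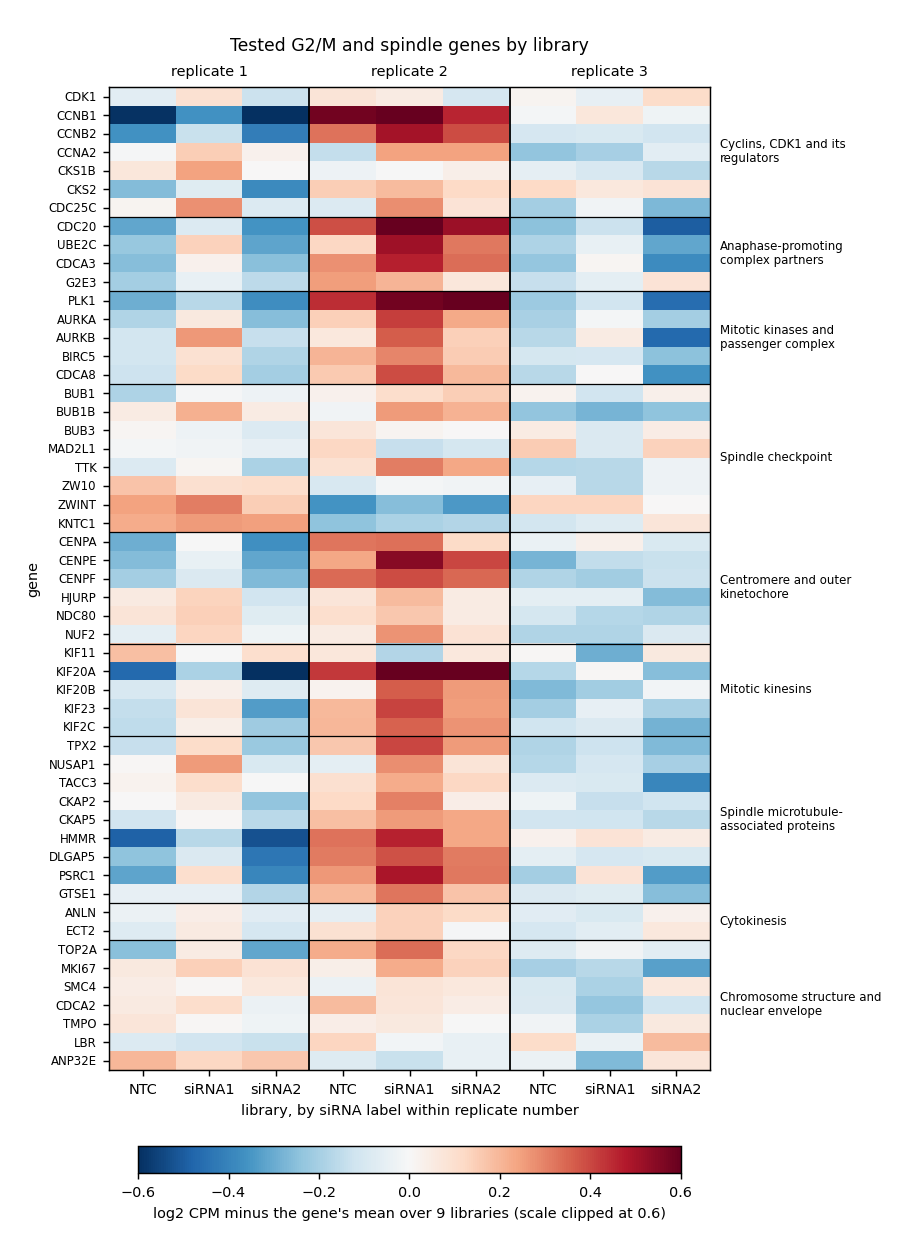
Heat map of the 53 tested members (rows, grouped by role) in the 9 libraries (columns, by siRNA label within replicate number), coloured by log2 CPM minus the gene's own mean over all libraries. The replicate 2 columns are mostly red for the cyclins B, anaphase-promoting complex partners, kinases, kinesins and spindle proteins, and ZWINT and KNTC1 are blue there.

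The count of members called by replicate number lay between 35 and 44 with each library left out in turn, beside 24.4% to 37.5% of all genes. Of those members 34 to 43 were among the original 43. Without the 3 replicate 1 libraries, 36 members were higher and 1 lower in replicate 2 than in replicate 3, and 37 of the calls were shared. In that fit 17.2% of all genes were called between replicates 2 and 3 in either direction. Leaving out siRNA1 replicate 3 gave the fewest higher members in replicate 2, 26, where the replicate number as a whole called 29.8% of all genes. For replicate 1 against the others, leaving out 1 library gave 13 to 22 lower and 2 to 7 higher members. The 13 came without NTC replicate 1, the 2 without siRNA1 replicate 1 and the 7 without NTC replicate 3. Shares of all genes by direction were not counted in the refits of this paragraph. With library size alone as the scale, where the median of all genes moved to -0.06, 35 members were higher and 2 lower in replicate 2 than in replicate 3. The replicate number as a whole called 35.2% of all genes on that scale.

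Summed levels of some cell type markers also differed by replicate number. The T lineage markers summed to 1936 to 2186 CPM in replicate 3 and to 2225 to 2426 CPM in the other libraries. They did not move as 1 group. CD7 and LCK were higher (9.91% of all genes) and CD2 lower (10.7%) in replicate 2 than in replicate 3. CD3D and CD5 were higher in replicate 1 (10.9%). TRBC2 stood at 168 to 189 CPM in replicate 3 and at 143 to 170 CPM in the other libraries. The 6 B cell markers summed to 27.2 to 32.6 CPM in replicate 1, 22.9 to 25.7 in replicate 2 and 19.9 to 27.2 in replicate 3. MS4A1, which encodes CD20, was at 0 in 8 of 9 libraries, and CD79A and PAX5 were higher and CD79B lower in replicate 1. The 6 myeloid markers summed to 0.550 to 0.741 CPM in replicate 1 and 0.829 to 1.29 CPM in the other libraries. FCGR3A, which encodes CD16, was at 0 in 8 libraries. Of 6 epithelial and fibroblast markers, VIM, which encodes vimentin and is also expressed in lymphoid cells, stood at 239.5 to 297 CPM and was not called by replicate number. It made up nearly the whole sum of that list, and KRT18 was at 0 in all 9 libraries and EPCAM in 8. The 6 NK markers summed to 0.240 to 0.389 CPM and the 6 erythroid markers to 0.0423 to 0.137 CPM. The part of these markers in the members' differences was not tested.

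The members spanned a wide range of levels. Per kilobase of exon, CKS2 was the highest at 298 CPM per kb, followed by TOP2A (173), NUSAP1 (154), UBE2C (118), TPX2 (110.2) and MKI67 (106). At the low end of the tested members stood CDC25C at 4.58 and G2E3 at 7.44 CPM per kb. Within a gene, the highest library exceeded the lowest by 1.12-fold to 2.55-fold, the extremes being BUB3 and CCNB1. NUSAP1 shares 62.2% of its exon length with another gene model on the same strand, and SMC4, PLK1 and BUB1B share 25.6%, 12.5% and 10.2% with neighbours, so their levels may hold or lack reads of those genes. Named pseudogene copies exist for 12 members, among them CCNB2, CDC20, UBE2C and AURKA, whose reads the counting could have split.

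The 6 members with the smallest p for the replicate number were CCNB1, CDC20, KIF20A, PLK1, CCNB2 and HMMR. In what follows, values under each label stand in the order of replicates 1, 2 and 3, and log2 differences come from the edgeR fit. Counts by role come from small groups and stand beside these shares of all genes. The replicate number called 35.8%, replicate 2 was higher than replicate 3 in 9.91% and lower in 10.7%. Replicate 1 was lower than the others in 10.4% and higher in 10.9%. CCNB1 (chr5:69167010-69178245 of GRCh38, from GENCODE) encodes cyclin B1, the main partner of CDK1 at mitotic entry. With NTC CCNB1 was at 91.7, 206 and 137 CPM, against 107, 212 and 145 with siRNA1 and 83.4, 189.9 and 136 with siRNA2. The 3 replicate numbers did not overlap, with replicate 1 lowest and replicate 2 highest, while the 3 labels overlapped throughout. Replicate 2 exceeded replicate 3 by 0.54 (SE 0.06, adjusted p = 7.17e-06), and replicate 1 fell short of the others with a log2 difference of -0.84 (SE 0.06, adjusted p = 6.53e-10), the widest of any member.

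CCNB2 (chr15:59105078-59125045) encodes cyclin B2, which acts with CDK1 at the Golgi and the spindle. The CCNB2 level was 87.8, 142 and 106 CPM with NTC, 103, 160.0 and 106 CPM with siRNA1 and 85.0, 148 and 104 CPM with siRNA2. Its replicate numbers were also fully separated, in the same order as for CCNB1. The difference was 0.51 (SE 0.07, adjusted p = 1.66e-05) between replicates 2 and 3 and -0.45 (SE 0.06, adjusted p = 5.56e-06) between replicate 1 and the others. CDC20 (chr1:43358955-43363203) encodes the activator through which the anaphase-promoting complex recognises cyclin B. For CDC20, NTC gave 128, 208 and 134 CPM, siRNA1 150.1, 261 and 145 and siRNA2 124, 227 and 113. Each replicate 2 library was above all 6 others, and replicates 1 and 3 overlapped. Replicate 2 exceeded replicate 3 by 0.83 (SE 0.07, adjusted p = 5.47e-08), a 1.78-fold difference.

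PLK1 (chr16:23677656-23690367) encodes Polo-like kinase 1, needed for centrosome maturation and cyclin B activation. PLK1 stood at 54.5, 90.9 and 57.4 CPM with NTC, 59.5, 99.9 and 61.7 with siRNA1 and 51.6, 102 and 48.7 with siRNA2. Replicate 2 was again above every other library under all labels, with a difference of 0.81 (SE 0.07, adjusted p = 1.93e-07) from replicate 3. KIF20A (chr5:138178719-138187715) encodes a kinesin of the central spindle that acts in cytokinesis. With NTC KIF20A was at 49.6, 92.0 and 60.8 CPM, against 60.1, 106 and 68.8 with siRNA1 and 45.2, 105 and 57.4 with siRNA2. The replicate 2 libraries were the highest, and replicates 1 and 3 overlapped in 1 pair of libraries. Replicate 2 exceeded replicate 3 by 0.70 (SE 0.07, adjusted p = 1.06e-06), and replicate 1 differed from the others by -0.63 (SE 0.06, adjusted p = 3.34e-07). HMMR (chr5:163460203-163491945) encodes a microtubule-binding protein that keeps spindle poles focused. The HMMR level was 51.5, 90.3 and 73.5 CPM with NTC, 64.2, 99.2 and 76.2 CPM with siRNA1 and 50.3, 84.8 and 74.6 CPM with siRNA2. Its replicate numbers did not overlap, and the gap between replicate 1 and the others, -0.59 (SE 0.06, adjusted p = 3.78e-07), was wider than that between replicates 2 and 3, 0.29 (SE 0.07, adjusted p = 0.00489).

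**Figure D2:**
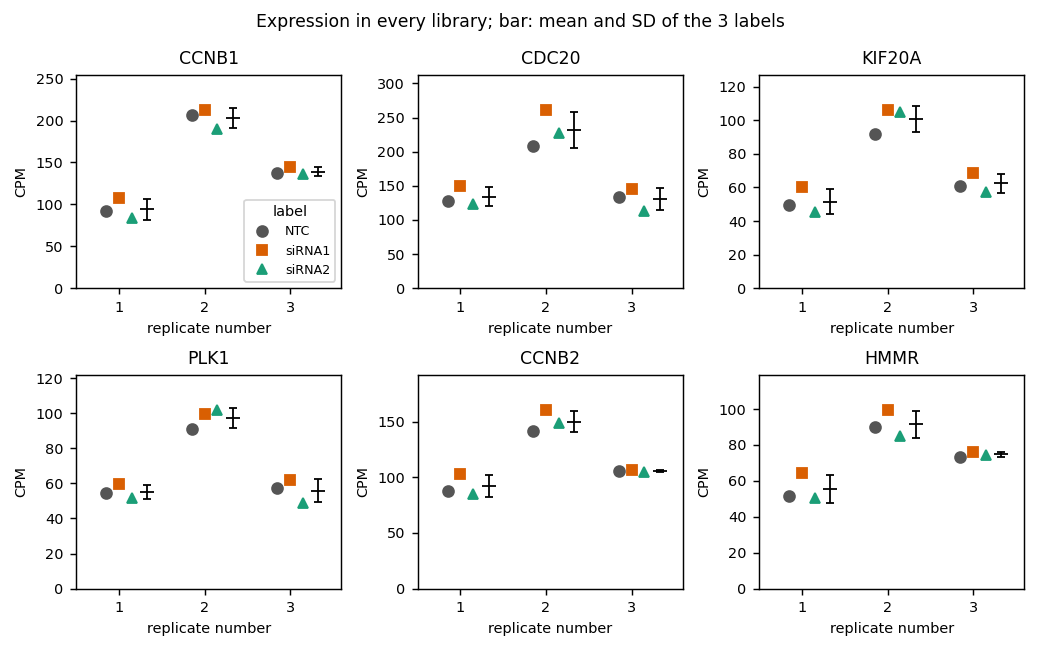
CPM of the 6 members in every library by replicate number, with a marker for each siRNA label and the mean and SD of the 3 labels as a bar. CCNB1 averaged 94.2 ± 12.2, 203 ± 11.7 and 139 ± 4.9 CPM (SD, n = 3) in replicates 1, 2 and 3, and all 6 genes were highest in replicate 2.

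The promoters of these 6 genes are shown because their transcripts moved together between replicate numbers. Promoter sequences were taken from RefSeq on GRCh38.p14, where 45 of the 54 members matched. Each sequence below runs from 130 bases before to 20 bases after the annotated start, 5′ to 3′ on the plus strand of the genome, on which all 6 genes lie. Capitals mark the NF-Y box CCAAT and the CHR core TTTGAA in either orientation, so that ATTGG and TTCAAA also count. The positions are chr5:69167020-69167169 for CCNB1, chr15:59105016-59105165 for CCNB2, chr1:43358851-43359000 for CDC20, chr16:23678759-23678908 for PLK1, chr5:138178982-138179131 for KIF20A and chr5:163460502-163460651 for HMMR.
CCNB1: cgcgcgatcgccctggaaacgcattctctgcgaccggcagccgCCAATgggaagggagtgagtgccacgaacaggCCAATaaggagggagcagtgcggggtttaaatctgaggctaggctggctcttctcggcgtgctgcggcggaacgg
CCNB2: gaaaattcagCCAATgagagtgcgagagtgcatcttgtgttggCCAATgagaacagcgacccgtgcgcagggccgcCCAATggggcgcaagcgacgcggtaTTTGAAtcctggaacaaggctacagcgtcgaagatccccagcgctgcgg
CDC20: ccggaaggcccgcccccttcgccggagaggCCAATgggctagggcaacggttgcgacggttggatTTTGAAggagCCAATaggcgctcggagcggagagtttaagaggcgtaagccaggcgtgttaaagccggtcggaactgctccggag
PLK1: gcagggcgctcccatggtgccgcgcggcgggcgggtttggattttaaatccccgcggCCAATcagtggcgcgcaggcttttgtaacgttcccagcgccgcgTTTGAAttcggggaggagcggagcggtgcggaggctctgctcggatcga
KIF20A: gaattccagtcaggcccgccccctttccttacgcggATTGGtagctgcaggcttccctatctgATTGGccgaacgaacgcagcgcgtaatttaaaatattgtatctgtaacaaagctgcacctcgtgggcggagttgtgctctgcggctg
HMMR: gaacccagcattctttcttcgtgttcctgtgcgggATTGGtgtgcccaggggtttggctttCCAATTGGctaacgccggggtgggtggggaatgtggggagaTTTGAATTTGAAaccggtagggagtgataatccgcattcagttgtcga

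All 6 windows held CCAAT. CCNB2 had 3 such boxes, beginning at -120, -87 and -54 from the start, with a further one at -244 outside the printed window. TTTGAA began at -29 in CCNB2 and in PLK1, at -65 in CDC20, and at -28 and -22 in HMMR, where the 2 copies lie in tandem. In HMMR a CCAAT at -69 overlaps an ATTGG at -66. CCNB1 and KIF20A had no TTTGAA here, which says only that these letters are not in this window. Over whole promoters of 300 bases, CCAAT was found in 33 of 45 members (73.3%) and in 42.8% of the 10451 tested genes with an entry. TTTGAA was found in 32 of 45 members (71.1%) and in 14.1% of those genes, and both in 1 promoter in 57.8% of members and 5.80% of genes. These letters are a description of the windows and do not show binding. Members with both motifs and members without both had nearly the same median difference between replicates 2 and 3, 0.29 (26 members) and 0.28 (18 members).

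Of the cyclins and CDK1 regulators, 6 of 7 passed the test of the replicate number and CDK1 itself did not. For CDK1, NTC gave 178, 196 and 188 CPM, siRNA1 198, 192 and 179 and siRNA2 169.7, 173 and 201. These values lay within a narrow band, all labels and replicate numbers overlapped, and replicates 2 and 3 differed by -0.02 (SE 0.07, adjusted p = 0.89). CCNA2, which encodes cyclin A2, was higher in replicate 2 than in 3, by 0.28 (SE 0.07, adjusted p = 0.00738). CKS2, a small CDK-binding subunit, was lower in replicate 1, with a difference of -0.36 (SE 0.06, adjusted p = 0.000117), and differed by 0.06 between replicates 2 and 3. CKS1B, its paralogue, passed only the test of the replicate number as a whole (adjusted p = 0.048). CDC25C (chr5:138285265-138338355), the phosphatase that activates CDK1, had the lowest level per kilobase of all tested members. CDC25C stood at 15.4, 14.3 and 13.2 CPM with NTC, 18.4, 18.4 and 14.95 with siRNA1 and 14.4, 16.1 and 12.6 with siRNA2. Under siRNA1 it was the highest of the 3 labels within each replicate number, and the ranges of the labels still overlapped. CDC25C differed between replicates 2 and 3 by 0.26 (SE 0.08, adjusted p = 0.0199).

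All 4 partners of the anaphase-promoting complex were higher in replicate 2 than in replicate 3 and lower in replicate 1 than in the others. UBE2C (chr20:45812576-45816957) encodes the ubiquitin-conjugating enzyme of the complex. With NTC UBE2C was at 127, 162 and 131 CPM, against 164, 212 and 145 with siRNA1 and 119.6, 185 and 120.0 with siRNA2. The siRNA1 library was the highest within each replicate number, and replicate 2 exceeded replicate 3 by 0.50 (SE 0.07, adjusted p = 4.52e-05). CDCA3 (chr12:6844793-6852066) encodes an adaptor that promotes degradation of the mitosis inhibitor WEE1. The CDCA3 level was 48.2, 69.5 and 48.9 CPM with NTC, 58.6, 79.4 and 58.0 CPM with siRNA1 and 48.3, 72.6 and 44.3 CPM with siRNA2. The replicate 2 libraries of CDCA3 were above the 6 others, by 0.56 (SE 0.07, adjusted p = 7.11e-06) over replicate 3. G2E3, a ubiquitin ligase of G2, moved least in this group, by 0.21 (SE 0.07, adjusted p = 0.0402).

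The mitotic kinases and the chromosomal passenger complex were higher in replicate 2 than in 3 in all 5 genes, and 2 of them, PLK1 and AURKA, were lower in replicate 1. AURKA (chr20:56369389-56392337) encodes the centrosomal Aurora kinase. For AURKA, NTC gave 65.8, 82.3 and 65.1 CPM, siRNA1 77.6, 99.3 and 74.0 and siRNA2 62.5, 87.3 and 64.7. Replicate 2 stood above the 6 other libraries, by 0.40 (SE 0.06, adjusted p = 0.000149) over replicate 3, and siRNA1 was highest within each replicate number. AURKB (chr17:8204733-8210600), the Aurora kinase of the passenger complex, showed a different order. AURKB stood at 109, 123 and 105 CPM with NTC, 140.2, 151 and 121 with siRNA1 and 106, 129 and 85.0 with siRNA2. Here the siRNA1 libraries were again highest within each replicate number, with ranges that overlapped NTC, and the log2 difference of replicate 1 from the others was 0.00. Replicate 2 exceeded replicate 3 by 0.38 (SE 0.07, adjusted p = 0.00062). CDCA8 (chr1:37692418-37709719) encodes borealin, the passenger subunit that binds nucleosomes. With NTC CDCA8 was at 139, 169 and 135 CPM, against 164, 199 and 152 with siRNA1 and 131, 174 and 118 with siRNA2. BIRC5 (chr17:78214186-78225636) encodes survivin, which brings the complex to the centromere. The BIRC5 level was 249.97, 310.5 and 251 CPM with NTC, 288, 330.1 and 251 CPM with siRNA1 and 238, 299.7 and 228 CPM with siRNA2. In both genes every replicate 2 library was above the others, by 0.42 (SE 0.06, adjusted p = 8.01e-05) for CDCA8 and 0.37 (SE 0.06, adjusted p = 0.000285) for BIRC5.

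The spindle checkpoint genes did not move as 1 group. Of 8, replicate 2 was higher than replicate 3 for BUB1B, by 0.40 (SE 0.07, adjusted p = 0.000277), and for TTK, by 0.33 (SE 0.07, adjusted p = 0.00198), which encode BUBR1 and the kinase MPS1. It was lower for ZWINT (chr10:56357228-56361275), which encodes a kinetochore protein that binds KNL1, by a log2 difference of -0.41 (SE 0.06, adjusted p = 7.63e-05). Replicate 1 was higher than the others for ZWINT, 0.35 (SE 0.05, adjusted p = 3.97e-05), for KNTC1, 0.36 (SE 0.05, adjusted p = 2.9e-05), and for ZW10, 0.19 (SE 0.06, adjusted p = 0.0216). KNTC1 and ZW10 encode subunits of the complex that brings dynein to kinetochores. ZWINT, the only member that was both higher in replicate 1 and lower in replicate 2 than in 3, is shown in full. For ZWINT, NTC gave 226, 149 and 209 CPM, siRNA1 237, 160.0 and 209 and siRNA2 212, 150.4 and 192. The replicate 2 libraries were the lowest and the replicate 1 libraries the highest, with no overlap between replicate numbers and full overlap between labels.

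BUB1 (chr2:110637698-110678114) encodes a checkpoint kinase that recruits other checkpoint proteins. BUB1 stood at 376, 435 and 433 CPM with NTC, 425, 460.0 and 395 with siRNA1 and 419, 474 and 436 with siRNA2. Labels and replicate numbers overlapped, and the test of the replicate number gave an adjusted p of 0.105. MAD2L1 (chr4:120055608-120067074) encodes MAD2, which inhibits CDC20. With NTC MAD2L1 was at 146, 159.7 and 163 CPM, against 144, 133 and 138 with siRNA1 and 142, 136 and 161 with siRNA2. The siRNA1 value was the lowest within replicates 2 and 3. All siRNA1 libraries were below all NTC libraries, and the siRNA2 range overlapped both. BUB3, which recruits BUB1 to kinetochores, was the steadiest member, with an adjusted p of 0.659 for the replicate number.

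All 6 centromere and outer kinetochore genes were higher in replicate 2 than in replicate 3. CENPF (chr1:214603195-214664588) encodes a large kinetochore protein. The CENPF level was 634, 923 and 644 CPM with NTC, 686, 956 and 630.3 CPM with siRNA1 and 608, 925 and 666 CPM with siRNA2. The replicate 2 libraries did not overlap the 6 others, and the difference from replicate 3 was 0.53 (SE 0.06, adjusted p = 6.3e-06). CENPE (chr4:103105806-103198409) encodes the kinesin that moves chromosomes to the spindle equator. For CENPE, NTC gave 92.7, 130.1 and 91.3 CPM, siRNA1 107, 162 and 100.05 and siRNA2 89.4, 146 and 101. It showed the same separation, with 0.58 (SE 0.07, adjusted p = 4.33e-06). CENPA (chr2:26764289-26801067) encodes the histone H3 variant that marks centromeres. CENPA stood at 32.3, 49.4 and 38.4 CPM with NTC, 39.5, 49.7 and 40.4 with siRNA1 and 30.7, 42.9 and 37.1 with siRNA2. Replicate 2 was above the others, and siRNA1 was highest within each replicate number. HJURP, the chaperone that deposits CENPA, was steadier. With NTC HJURP was at 88.8, 90.0 and 82.2 CPM, against 94.0, 97.7 and 82.2 with siRNA1 and 79.0, 88.7 and 71.5 with siRNA2. Within each replicate number the siRNA2 library was the lowest, and the ranges of the labels overlapped. NDC80 and NUF2, which form the microtubule-binding dimer of the kinetochore, were higher in replicate 2 by 0.26 and 0.28.

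Among the 5 kinesins, KIF11 departed from the rest. KIF11 (chr10:92593286-92655395) encodes Eg5, which pushes spindle poles apart. The KIF11 level was 263, 243 and 233 CPM with NTC, 231, 205 and 189 CPM with siRNA1 and 249, 242 and 242 CPM with siRNA2. All 3 siRNA1 libraries were below every one of the 6 other libraries, and the replicate numbers overlapped. No difference by replicate number was called (adjusted p = 0.0914). KIF23, a kinesin of the central spindle, followed the majority. For KIF23, NTC gave 72.5, 91.6 and 69.7 CPM, siRNA1 84.5, 106 and 77.4 and siRNA2 63.5, 95.2 and 70.1. Replicate 2 was above the other libraries, by 0.43 (SE 0.07, adjusted p = 0.000134) over replicate 3. KIF20B and KIF2C, which act in cytokinesis and in depolymerising microtubules, were higher in replicate 2 by 0.38 and 0.44.

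All 9 tested spindle microtubule-associated proteins were higher in replicate 2 than in replicate 3. TPX2 activates AURKA and nucleates microtubules. TPX2 stood at 357, 439 and 346 CPM with NTC, 423, 518 and 360.3 with siRNA1 and 336, 469 and 326 with siRNA2. CKAP5 (chr11:46743048-46846308) encodes a microtubule polymerase. With NTC CKAP5 was at 495, 609 and 496 CPM, against 539, 641 and 494 with siRNA1 and 479, 629.7 and 479 with siRNA2. In both genes the replicate 2 libraries stood above the 6 others, by 0.46 (SE 0.06, adjusted p = 3.82e-05) for TPX2 and 0.36 (SE 0.06, adjusted p = 0.000325) for CKAP5. PSRC1 (chr1:109279556-109283186) encodes a protein that promotes microtubule turnover in the spindle. The PSRC1 level was 24.8, 37.0 and 26.8 CPM with NTC, 33.2, 43.4 and 32.7 CPM with siRNA1 and 23.6, 38.5 and 24.5 CPM with siRNA2. Replicate 2 was again above the rest, and siRNA1 was the highest label within each replicate number. NUSAP1 bundles spindle microtubules. For NUSAP1, NTC gave 441, 421 and 389 CPM, siRNA1 524, 532 and 409 and siRNA2 411, 463 and 382. Here replicate numbers overlapped, siRNA1 was highest within each, and the overlapping gene model named above limits the level. TACC3 and CKAP2, which stabilise spindle microtubules, DLGAP5, a spindle assembly factor, and GTSE1, a microtubule-binding protein, were higher in replicate 2 by 0.33, 0.25, 0.42 and 0.37.

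The 2 cytokinesis genes, ANLN and ECT2, were not called by replicate number. ANLN (chr7:36389806-36453791) encodes anillin, a scaffold of the contractile ring. ANLN stood at 113, 112 and 111 CPM with NTC, 119, 128 and 109 with siRNA1 and 111, 125 and 118 with siRNA2. These values overlapped in every grouping, and ECT2, the exchange factor that activates RhoA, stood at 104 to 122 CPM. Of 7 genes of chromosome structure and the nuclear envelope, 3 were higher in replicate 2 than in 3. TOP2A (chr17:40388516-40417950) encodes topoisomerase II alpha, which disentangles sister chromatids. With NTC TOP2A was at 924, 1287 and 1042 CPM, against 1138, 1389.7 and 1084 with siRNA1 and 888, 1199 and 1053 with siRNA2. Replicate 2 was above the 6 other libraries, by 0.28 (SE 0.07, adjusted p = 0.00427) over replicate 3. MKI67 (chr10:128096659-128126385) encodes Ki-67, which coats mitotic chromosomes. The MKI67 level was 1403, 1381 and 1173 CPM with NTC, 1487, 1573 and 1202 CPM with siRNA1 and 1431, 1485 and 1076 CPM with siRNA2. The replicate 3 libraries were the lowest, with a difference of 0.36 (SE 0.06, adjusted p = 0.000349) between replicates 2 and 3. ANP32E (chr1:150218417-150236156) encodes a chaperone that removes the histone variant H2A.Z. For ANP32E, NTC gave 402, 331 and 341 CPM, siRNA1 381, 318 and 291 and siRNA2 391, 338 and 367. It was highest in replicate 1, by 0.24 (SE 0.06, adjusted p = 0.00298), and lowest under siRNA1 within each replicate number. CDCA2, a phosphatase subunit, was higher in replicate 2 by 0.25, and the condensin gene SMC4 and the nuclear envelope genes TMPO and LBR were not called by the replicate number as a whole. LBR was lower in replicate 1, with -0.17 (SE 0.06, adjusted p = 0.0417).

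No member passed in the comparisons between siRNA labels when genes were filtered on low counts and the replicate number was not in the fit. With no filter 1 member passed for siRNA1 against siRNA2. For siRNA1 against NTC 0 of 53 members were called where 1.28% of all genes were, for siRNA2 against NTC 0 (0% of all genes), for siRNA1 against siRNA2 0 (1.08%) and for both TLX1 labels against NTC 0 (0.0162%). At an unadjusted p under 0.05 stood 2, 0, 2 and 0 of 53 members in this order, beside 1903, 392, 1863 and 970 of 18554 genes. DESeq2 and limma-voom called no member either. The lowest adjusted p was 0.328 for siRNA1 against NTC, that of KIF11 (log2 difference -0.24, SE 0.09). The widest positive differences from NTC, none of them called, were those of UBE2C, 0.31 (SE 0.18, adjusted p = 0.65), PSRC1, 0.30 (SE 0.20, adjusted p = 0.706), and AURKB, 0.30 (SE 0.14, adjusted p = 0.5). The median member differed by 0.09 for siRNA1 against NTC, with 44 of 53 values above 0, by -0.01 for siRNA2 against NTC and by 0.12 for siRNA1 against siRNA2, beside medians of all genes of 0.01, -0.00 and 0.01. The members' own SEs had a median of 0.14 for siRNA1 against NTC.

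The replicate numbers pair the libraries, and with them as a block the median of the members' own SEs for siRNA1 against NTC was 0.07. With the block 10 of 53 members were higher under siRNA1 than under NTC (5.48% of all genes) and 1 was lower (5.93%). The 10 were CDC25C, CDC20, UBE2C, CDCA3, AURKA, AURKB, CDCA8, CENPE, NUSAP1 and PSRC1, and the lower one was KIF11. Against siRNA2 16 members were higher under siRNA1 (5.29%) and 1, KIF11 again, was lower (5.27%). These comparisons share the siRNA1 libraries and are given side by side. With the block 0 members were called for siRNA2 against NTC (0.151% of all genes) and 0 for both TLX1 labels against NTC (3.92%). At an unadjusted p under 0.05 these 2 blocked comparisons held 2 and 8 of 53 members, beside 1553 and 2904 of 18554 genes. The blocked comparisons of siRNA1 with NTC and with siRNA2 held 21 and 27 members there, beside 4427 and 4325 genes.

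The sizes were small. AURKB was 0.29 (SE 0.07, adjusted p = 0.00701) higher than NTC and 0.37 (SE 0.07, adjusted p = 0.00083) higher than siRNA2 in the blocked fit, a 1.3-fold difference in the latter. PSRC1 gave 0.31 (SE 0.07, adjusted p = 0.00478) and 0.36 (SE 0.07, adjusted p = 0.00156), and UBE2C gave 0.30 (SE 0.07, adjusted p = 0.00633) and 0.30 (SE 0.07, adjusted p = 0.00527). For CDC20 the values were 0.22 (SE 0.07, adjusted p = 0.0334) and 0.28 (SE 0.07, adjusted p = 0.0081), and for CDCA8 0.21 (SE 0.06, adjusted p = 0.0276) and 0.29 (SE 0.06, adjusted p = 0.00309). KIF11 was lower, with -0.24 (SE 0.06, adjusted p = 0.0127) and -0.23 (SE 0.06, adjusted p = 0.018). Called against siRNA2 only were CCNB1 (0.21, adjusted p = 0.0436), CENPA (0.23), HJURP (0.20), KIF23 (0.24), TPX2 (0.21), KIF20A (0.22) and TOP2A (0.20). KIF20A lay just inside the threshold against siRNA2 (adjusted p = 0.0495) and just outside it against NTC (0.0507). Among the members, none of the 8 spindle checkpoint and 2 cytokinesis genes was called. Against NTC 5.48% of all genes were called higher and 5.93% lower, so no call in groups this small is near those shares.

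**Figure D3:**
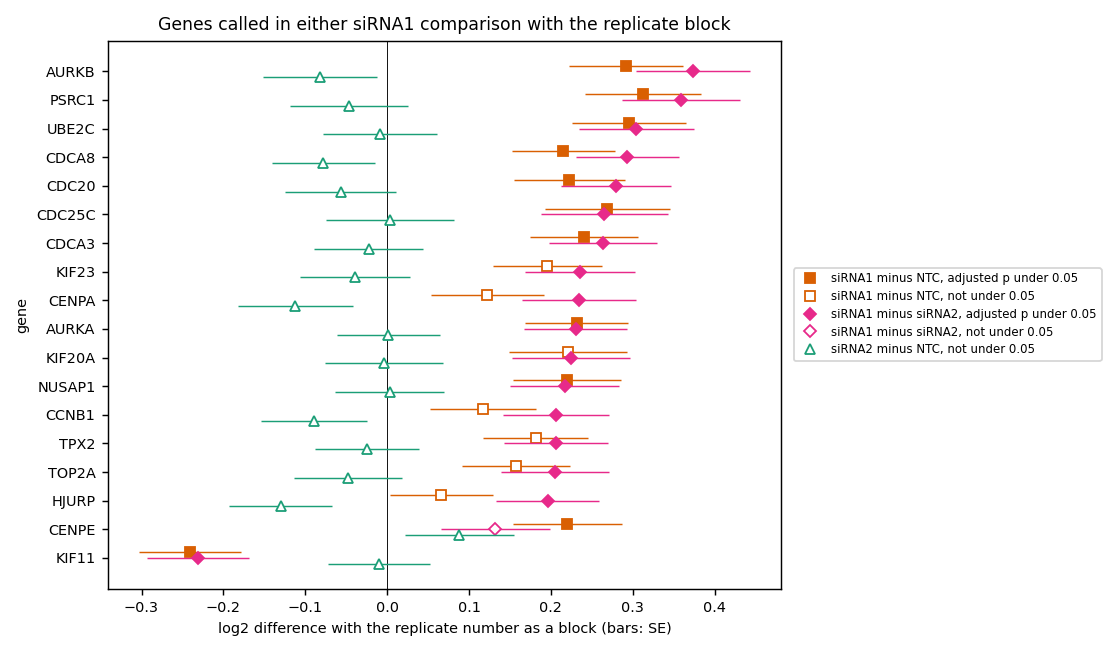
Log2 differences between siRNA labels for the 18 members called in either siRNA1 comparison with the replicate number as a block, with SE bars and filled markers where the adjusted p is under 0.05. AURKB and PSRC1 have the widest differences between siRNA1 and siRNA2, KIF11 is the only one below 0 in the siRNA1 comparisons, and the siRNA2 minus NTC values (open triangles) are not called.

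The calls made with the block depended on which libraries were in the fit. Within replicate numbers 1, 2 and 3 the median member differed between siRNA1 and NTC by 0.15, 0.12 and 0.01 on the log2 CPM scale, with 45, 45 and 31 of 53 members higher under siRNA1. Between siRNA1 and siRNA2 the medians were 0.21, 0.11 and 0.03, and between siRNA2 and NTC -0.07, 0.05 and -0.02. The medians of all genes lay between -0.01 and 0.01, except 0.03 for siRNA1 against siRNA2 within replicate 3, which equals that of the members. Members higher under siRNA1 than under NTC in all 3 replicate numbers were 30 of 53 (23.1% of all genes) and members lower in all 3 were 5 (22.8%). Against siRNA2 26 were higher (23.1%) and 2 lower (21.6%) in all 3. In the following counts of members called with the block, all genes called, of 18554 to 19106 tested, stand in brackets. Without the 3 replicate 1 libraries, the libraries with TLX3 counts, 0 members were called for siRNA1 against NTC (1139) and 1, AURKB, against siRNA2 (1015). In place of 11 (2117) for siRNA1 against NTC, 2 (1410) were called without NTC replicate 1 and 3 (1953) without NTC replicate 2. Without siRNA1 replicate 1 the count was 1 (1163) and without siRNA1 replicate 2 it was 5 (1456). In place of 17 (1958) against siRNA2, 11 (1855) were called without NTC replicate 1 and 4 (980) without siRNA1 replicate 1. Without siRNA1 replicate 2 the count against siRNA2 was 7 (1553) and without siRNA2 replicate 1 it was 6 (1575).

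**Figure D4:**
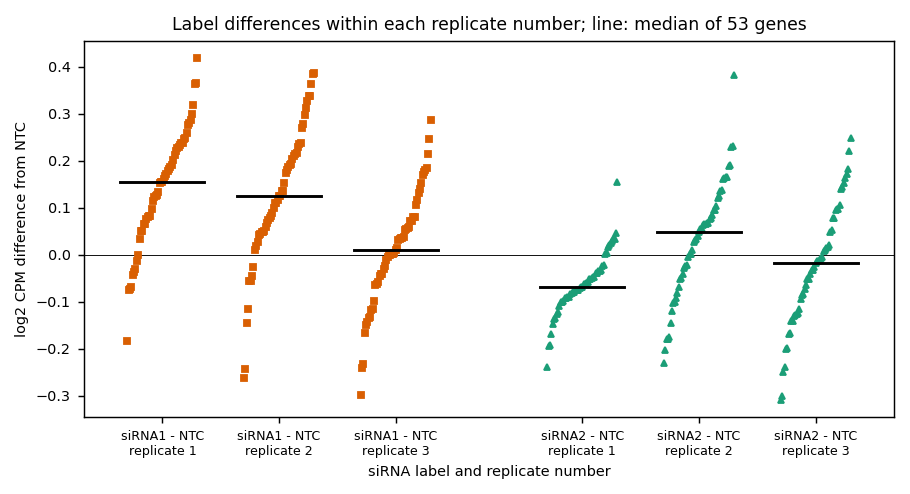
Log2 CPM differences of the 53 tested members from the NTC library of the same replicate number, sorted within each column, with the median as a line. The siRNA1 medians are 0.15, 0.12 and 0.01 in replicates 1, 2 and 3, and the siRNA2 medians are -0.07, 0.05 and -0.02.

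Other cell cycle genes, from lists chosen with the members, were read for the same contrasts. The 43 G1/S and DNA replication genes, which are expressed before mitosis under E2F, stood opposite to the mitotic members. Of them 37 were higher (10.9% of all genes) and 0 lower (10.4%) in replicate 1 than in replicates 2 and 3. In replicate 2, 0 were higher (9.91%) and 30 lower (10.7%) than in replicate 3. Their median log2 differences were 0.29 and -0.30. With each library left out in turn, 29 to 38 were higher in replicate 1 and 23 to 32 lower in replicate 2 than in 3. In those refits the replicate number as a whole called 24.4% to 37.5% of all genes, and shares by direction were not counted. TK1, thymidine kinase 1, differed by -0.83 (SE 0.07, adjusted p = 5.47e-08) between replicates 2 and 3. PCNA, the sliding clamp of DNA polymerases, differed by -0.35 (SE 0.06, adjusted p = 0.000417), and CCNE1, cyclin E1, by -0.49 (SE 0.09, adjusted p = 0.000405). ZWINT and KNTC1 had the signs of this list in both contrasts. Between labels, MCM6 (-0.20), UHRF1 (-0.49) and CHAF1A (-0.23) of the 43 were lower and UNG (0.54) was higher under siRNA1 than under NTC with the block, beside 5.93% and 5.48% of all genes. These are 3 and 1 of 43 genes, shares near or below those of all genes.

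**Figure D5:**
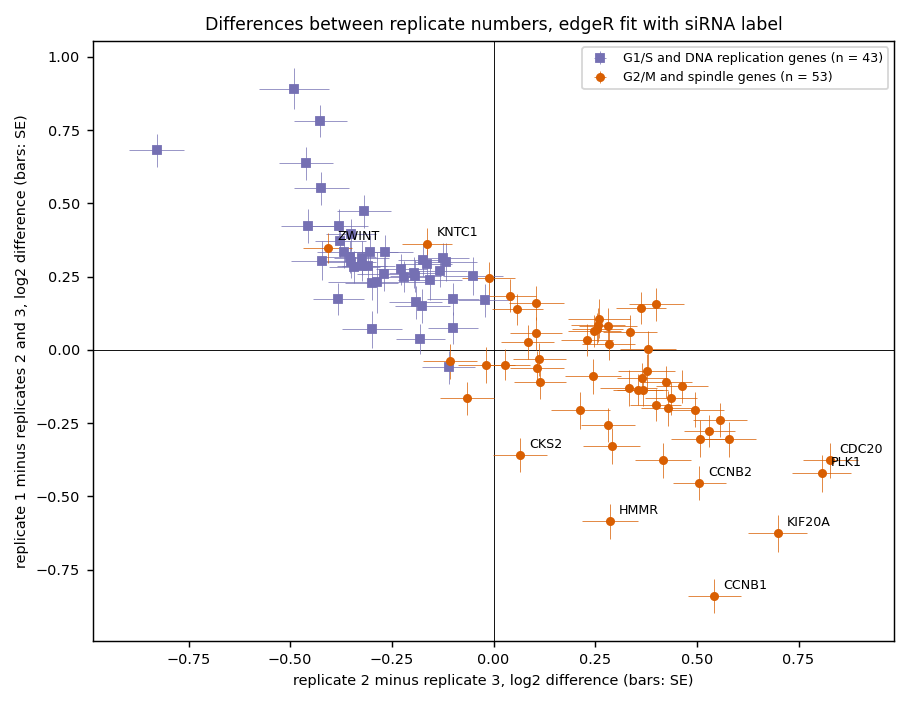
Log2 difference between replicates 2 and 3 (horizontal) and between replicate 1 and the other two (vertical) for 53 mitotic members (circles) and 43 G1/S genes (squares), with SE bars. Most members lie right of 0 and most G1/S genes lie above 0 and left of it, where ZWINT and KNTC1 also stand.

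Among 26 other mitotic motor, spindle and cytokinesis genes, 15 were higher and 0 lower in replicate 2 than in 3. For all genes the shares were 9.91% and 10.7%. In replicate 1, 2 of the 26 were higher (10.9% of all genes) and 11 lower (10.4%) than in replicates 2 and 3. ASPM, a spindle pole protein, gave 0.59 (SE 0.06, adjusted p = 2.16e-06) and TROAP, which associates with the spindle, gave 0.75 (SE 0.07, adjusted p = 2.56e-07). With the block 4 of the 26 were higher under siRNA1 than under NTC (5.48% of all genes) and 0 lower (5.93%). The 4 were RACGAP1 (0.26), CEP55 (0.22), DEPDC1 (0.26) and TROAP (0.26). RACGAP1 encodes the partner of KIF23 in the central spindle. Of 32 other centromere, kinetochore and checkpoint genes, 3 were higher (9.91% of all genes) and 9 lower (10.7%) in replicate 2 than in 3. In replicate 1, 13 were higher (10.9%) and 0 lower (10.4%). With the block PMF1 (0.28) and MAD1L1 (0.31), of the MIS12 complex and the checkpoint, were higher under siRNA1 than under NTC, and MIS18A (-0.25), which prepares centromeres for CENPA, was lower. These 2 and 1 of 32 genes are near or below the shares of all genes, 5.48% and 5.93%. Of 18 condensin, cohesin and separase genes, 2 were higher (9.91% of all genes) and 4 lower (10.7%) in replicate 2 than in 3. PTTG1, which encodes securin, the inhibitor of separase, was among the higher ones with 0.57 (SE 0.07, adjusted p = 8.8e-06). In replicate 1, 8 of the 18 were higher (10.9%) and 2 lower (10.4%) than in replicates 2 and 3.

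The regulators of the program were read as well. Of 16 MuvB, FOXM1, MYBL2 and NF-Y genes, 2 were higher (9.91% of all genes) and 3 lower (10.7%) in replicate 2 than in 3. In replicate 1, 7 of the 16 were higher (10.9%) and 1 lower (10.4%) than in replicates 2 and 3. FOXM1 stood at 115, 117 and 103 CPM with NTC, 115, 132 and 103 with siRNA1 and 104, 119.7 and 79.8 with siRNA2. FOXM1, a transcription factor of G2/M genes, was thus higher in replicate 2 than in replicate 3 under every label, by 0.38 (SE 0.07, adjusted p = 0.000716). With NTC MYBL2 was at 158, 82.1 and 117 CPM, against 156, 88.7 and 103 with siRNA1 and 148, 84.1 and 86.6 with siRNA2. MYBL2, which encodes B-MYB, was highest in replicate 1 under every label, and differed by -0.26 (SE 0.07, adjusted p = 0.0147) between replicates 2 and 3 and by 0.73 (SE 0.06, adjusted p = 1.73e-08) between replicate 1 and the others. TFDP2, a dimerisation partner of E2F factors, was the only one of the list called between labels without the block. The TFDP2 level was 612, 688 and 699 CPM with NTC, 394, 476 and 432 CPM with siRNA1 and 567, 659.6 and 669 CPM with siRNA2. All siRNA1 libraries were below all others, by a log2 difference of -0.62 (SE 0.10, adjusted p = 0.00959) from NTC. NFYA, the regulatory subunit of NF-Y, was lower under siRNA1 only with the block, -0.33 (SE 0.06, adjusted p = 0.000689). The condensin subunit gene NCAPD2 and the G1/S gene UHRF1 were also lower under siRNA1 than under NTC without the block, by -0.52 (SE 0.11, adjusted p = 0.0497) and -0.50 (SE 0.09, adjusted p = 0.016).

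Among 17 other subunits and inhibitors of the anaphase-promoting complex, UBE2S, the enzyme that extends its ubiquitin chains, was higher under siRNA1 with the block, 0.26 (SE 0.07, adjusted p = 0.0199). UBE2S was the only 1 of the 17 called between siRNA1 and NTC, beside 5.48% of all genes higher and 5.93% lower. It was also higher in replicate 2 than in replicate 3, by 0.43 (SE 0.07, adjusted p = 0.000257). Of 16 mitotic entry kinases and phosphatases none was called between siRNA1 and NTC with edgeR, with or without the block. Of them 3 were higher (9.91% of all genes) and 3 lower (10.7%) in replicate 2 than in 3. In replicate 1, 6 of the 16 were higher (10.9%) and 3 lower (10.4%) than in replicates 2 and 3. WEE1, the kinase that inhibits CDK1, differed by 0.19 (SE 0.09, adjusted p = 0.5) between siRNA1 and NTC. Of 14 listed G1 cyclins, CDKs and CDK inhibitors 11 were tested. With the block 3 of the 11 were higher under siRNA1 than under NTC (5.48% of all genes) and 0 lower (5.93%). The 3 were CDKN1B (0.21), CDKN2D (0.33) and RB1 (0.23). CDKN1A, the p21 gene, stood at 0.126 to 0.229 CPM in all libraries.

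In the blocked comparison of siRNA1 with siRNA2, which shares the siRNA1 libraries with the comparison above, further genes of these lists were called. Higher under siRNA1 were the kinesin gene KIFC1 (0.27), the spindle gene FAM83D (0.25) and the tubulin genes TUBA1C (0.37) and TUBB4B (0.34). With RACGAP1 and TROAP, 6 of 26 motor and spindle genes were higher and 0 lower, beside 5.29% and 5.27% of all genes. ESPL1, which encodes separase (0.31), TK1 (0.32) and CDKN2C (0.23) were also higher. ANAPC1 (-0.19), the MuvB subunit gene LIN9 (-0.24) and SKA3 (-0.27), of the outer kinetochore, were lower. CENPW, a centromere gene, was lower under both TLX1 labels together than under NTC (-0.24), and UNG was higher under siRNA2 than under NTC (0.79).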

How the data were processed

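Polyadenylated RNA of 9 ALL-SIL libraries was read from the deposited tables, which hold raw read counts per gene as the authors made them, in a column that ignores strand. The 2 stranded columns were near-equal (50.2% to 50.6% in 1 of them), so overlapping genes on opposite strands cannot be told apart. The build is GRCh38 per the submitters' processing notes, and which aligner and which annotation made the counts is not given in the sources used here. Genes held 75.5% to 77.6% of all tallied reads, and reads in no gene, 8.33% to 10.3%, were left out with the other summary lines. Symbols came from GENCODE release 29 (53747 identifiers matched with their version and 3741 without it, 608 did not match).

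Genes were kept with edgeR's filter by group (minimum count 10, minimum total 15). Counts were scaled by TMM and tested with edgeR 4.0.16 quasi-likelihood fits over all 9 libraries in R 4.3.3, with Benjamini-Hochberg adjustment over 18554 genes. SEs were derived from the fold change and its F statistic. Log2 CPM used a prior count of 2. Alternatives were DESeq2 1.42.0, limma-voom 3.58.1, other scaling and filters, left-out libraries and the replicate number as a block. Label comparisons were made without the block. Same-numbered libraries of different labels deviated together, with correlations of 0.383 to 0.623 over 9 pairs against -0.445 to 0.0693 over 18 other pairs. The deviations were taken from each label's own mean, so they cancel within a label. Positive values in same-numbered pairs therefore push the other pairs down, and the contrast between these ranges is partly built in. The pairing comes from the data, since the labels give only the numbers. The script was tested on simulated data. Sequences came from RefSeq promoters (GRCh38.p14).

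The members, lists and tests were chosen with earlier results of these data known. Values in every library are given for members called in a label comparison with or without the block, the 3 with the widest differences each way between siRNA1 and NTC, the highest of each role and the 6 with the smallest p for the replicate number. Other members are given by their differences. Of the other lists, genes called between labels are named, and FOXM1, MYBL2, PTTG1, ASPM, TK1, PCNA, CCNE1, WEE1 and CDKN1A were chosen after their values were seen.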

Additional observations from a re-analysis of the deposited data

How the results depend on the processing

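The replicate block raised the members called from 0 to 11 for siRNA1 against NTC and from 0 to 17 for siRNA1 against siRNA2, and it changed no other call on the members' counts. With no filter on low counts, 1 member was called for siRNA1 against siRNA2 without the block. In the blocked fit, RLE factors gave 11 members against siRNA2 in place of 17. Leaving out 1 library gave 1 to 15 members against NTC and 4 to 19 against siRNA2, beside 1163 to 2979 and 980 to 2387 genes. Leaving out the 3 replicate 1 libraries gave 0 and 1 members, beside 1139 and 1015 genes. No blocked call against NTC was kept in all 12 settings run, and against siRNA2 AURKB alone was. For the 30 members given in full, 2130 differences between labels were refitted. Of these 2101 stayed on their side of the threshold and 29 passed only under the alternative, 28 of them with the block. The sign changed in 184 of the 2130, of which 0 were called in either fit. None of the 30 was called in the main fit, and blocked calls were among the grounds for choosing them. The tally therefore does not measure how stable the calls are. The median member lay between -0.01 and 0.19 for siRNA1 against NTC, -0.15 and 0.08 for siRNA2 against NTC, 0.01 and 0.25 for siRNA1 against siRNA2, and -0.02 and 0.14 for both labels. The replicate number called 35 to 44 members with a library left out, beside 24.4% to 37.5% of all genes. All genes called for siRNA1 against NTC numbered 238, 553 with DESeq2, 590 with no filter and 2117 with the block. For siRNA1 against siRNA2 they numbered 201, 522, 557 and 1958 in this order, for both labels 3, 110, 169 and 728, and for siRNA2 against NTC 0, 4, 15 and 28. The causes of these differences were not tested. The lowest count of a tested member was 759.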
